A study of Mus musculus with 18 samples.

Results

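The 39 genes described here mark the differentiation of monocytes and macrophages. They were taken by gene symbol, and all 39 are among the 22787 genes of the deposited table. They cover chemokine receptors, integrins and matrix proteins, Fc receptors with their adaptors, Toll-like receptors (TLRs) with their partners, lysosomal and uptake proteins, small membrane proteins, and 3 regulators. RNA of 18 mouse samples was sequenced with SmartSeq2, a low-input method, and the samples formed 7 groups. Sorted granulocyte-monocyte progenitors (GMPs) made up 4 groups of 3 libraries, with 10000 cells a sample: Raptor KO with its control Raptor fl/fl, and Tsc2 KO with its control Tsc2 fl/fl. Raptor, encoded by Rptor, is the defining subunit of the kinase complex mTORC1, which Tsc2 restrains as part of another complex. The labels give floxed alleles but neither the Cre driver nor the age of the mice, so where and when the genes were deleted is not known here. GMPs were bone marrow cells with c-kit and FcγRII/III on their surface, low CD34 and Ly6C, and no Sca-1, CD127 or CD135, and the stain also held a lineage panel, whose antigens are not given, and CD115. The other 3 groups, of 2 libraries each, were DR-ER-Hoxb8 cells, an immortalized myeloid progenitor line that estradiol-dependent Hoxb8 keeps immature. All of these had 3 days of differentiation in medium with stem cell factor and no estradiol, in the solvent DMSO, in 100 nM rapamycin (an mTORC1 inhibitor) or in 10 nM SL0101-01 (SL0101 from here on, an inhibitor of RSK kinases). The activity of mTORC1 and RSK was not measured. Nothing in the labels tells if replicates were separate mice or cultures, so p-values measure only the spread between these samples.

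Monocytes arise in bone marrow from progenitors that can also form neutrophils, and the transcription factors PU.1 (gene Spi1) and IRF8 are known to direct the monocyte branch. As cells mature they acquire Ccr2, which lets them leave the marrow, integrins for adhesion, Fc receptors that bind antibody-coated particles, and TLRs that sense microbial lipids and nucleic acids. Macrophages add scavenger receptors and lysosomal proteins for taking up and degrading material. GMPs are known to express many of these genes at low levels.

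Each value is a gene's fragments over the size factor of its library, called signal units below. GMP libraries held 2.48 to 3.52 M fragments, and those of Hoxb8 cells 2.31 to 3.30 M. The progenitor genes Mpo and Elane, which encode granule proteins, were high in the GMP control groups: Elane ranged from 12480 to 14511 in the control of the Raptor line and from 6417 to 16283 in that of the Tsc2 line. The targeted genes checked the labels. Tsc2 fell from a mean of 248 in its fl/fl libraries to 95.1 in the knockout (log2 fold change -1.38, adjusted p = 1.69e-04). Rptor stood at a mean of 84.5 in its fl/fl libraries and 63.3 in the knockout, a difference that did not pass (log2 fold change -0.41, adjusted p = 0.377). The titles put samples in their groups, since another field names Raptor for the Tsc2 samples. Some GMP libraries stood apart. Y-linked genes summed to 385 in replicate 2 of Tsc2 fl/fl and 318 in replicate 2 of Tsc2 KO, and to at most 0.778 in every other GMP library. Among members with a group mean of 10 or more, Tsc2 fl/fl replicate 2 was the lowest library of its group for 18 of 23. In Tsc2 KO, replicate 1 was the highest for 20 of 26. Results in the Tsc2 line are therefore also given without these libraries.

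The members formed different profiles in both cell sources. Per kilobase of exon, which allows genes to be compared, Lyz2 (lysozyme) led all members in the Hoxb8 cells, at 18000 signal units per kb in DMSO, 10100 in rapamycin and 8820 in SL0101. The signalling adaptors Tyrobp and Fcer1g came next, at 5980 and 5930 per kb in DMSO. In GMPs the highest member per kb was Tyrobp in both fl/fl groups (739 in Raptor fl/fl and 510 in Tsc2 fl/fl) and Apoe (apolipoprotein E) in both knockout groups (1340 in Raptor KO and 766 in Tsc2 KO). Apoe spanned 577 to 2913 signal units over the 12 GMP libraries but only 14.9 to 22.1 over the 6 Hoxb8 libraries. Ifi30, a lysosomal thiol reductase, and Ly86, the partner of the TLR-like receptor Cd180, were likewise seen mainly in GMPs: Ifi30 spanned 71.1 to 229 against 0.758 to 2.75, and Ly86 24.8 to 194 against 0 to 2.62. The scavenger receptor Cd36 was at 0 in all 6 Hoxb8 libraries and spanned 2.82 to 75.7 in GMPs. Itgam (CD11b) spanned 1462 to 2615 in Hoxb8 cells and 5.93 to 52.9 in GMPs, and Klra2, a lectin of the Ly49 family, 7.58 to 93.0 against 0 to 2.23. Sorted marrow cells and a cultured line differ in source and handling, so these levels are a description with no test. Msr1, Aif1, Cd86, Slfn1, Maf and Fcgr1 stayed below 12 signal units in every library of either source. For statistics, 38 members had enough signal in GMPs (Klra2 did not) and 36 in Hoxb8 cells (Cd36, Msr1 and Aif1 did not).

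**Figure D1:**
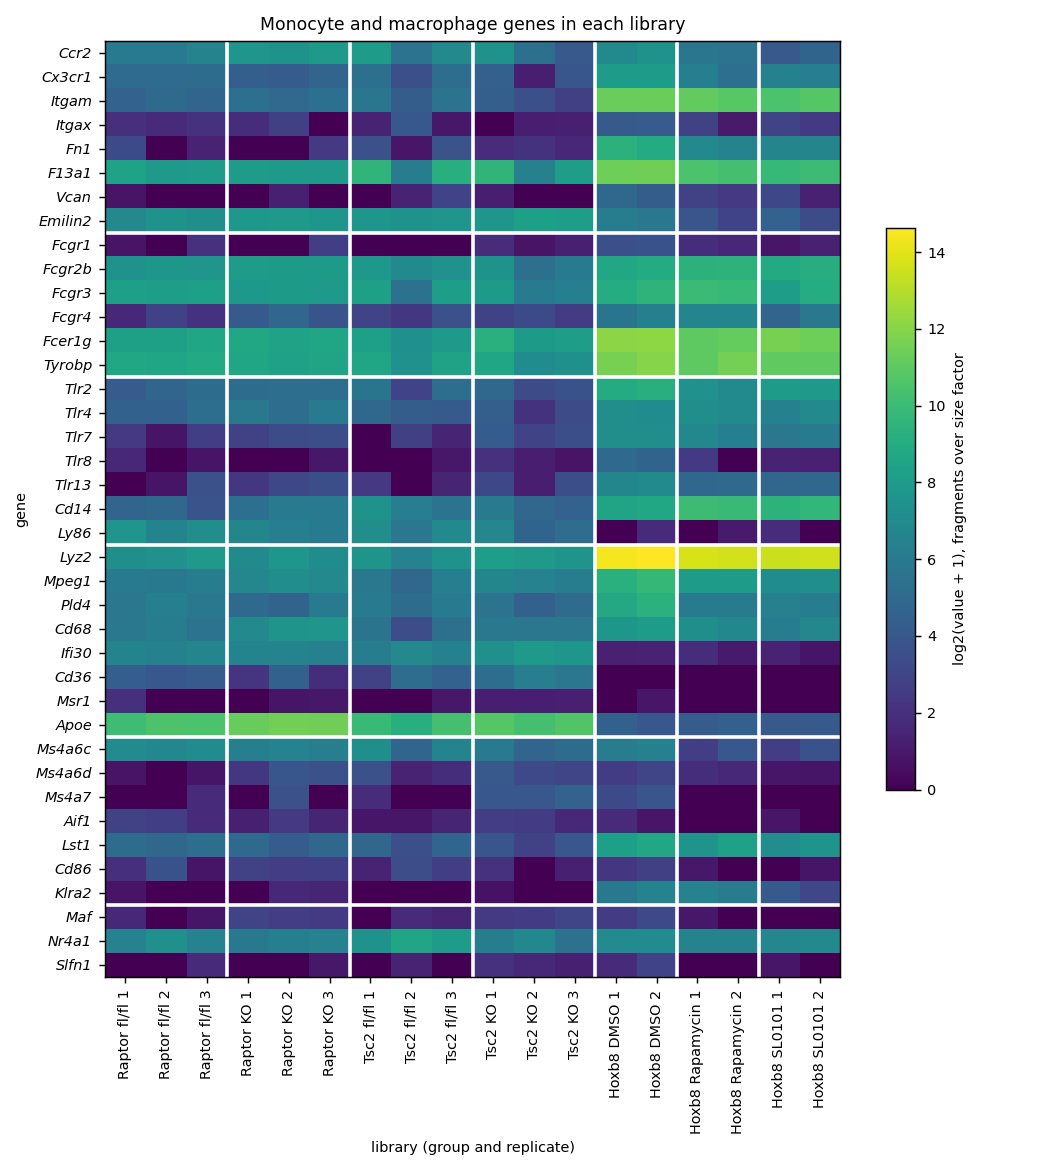
Level of each of the 39 genes (rows, ordered by role with white lines between roles) in each of the 18 libraries (columns, white lines between groups), as log2 of the signal value plus 1. Lyz2 is brightest in the Hoxb8 libraries, where Apoe, Ifi30 and Cd36 are dark, and Apoe is the brightest gene of the GMP libraries.

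Both inhibitors lowered most of the monocyte genes in differentiating Hoxb8 cells. Differences are log2 fold changes of the value plus 1 from limma, positive where the first-named group is higher, with Benjamini-Hochberg adjusted p-values over all genes tested and a threshold of 0.05. With rapamycin 19 of 36 tested members fell and 2 rose, where 6.35% and 5.4% of all genes tested did so (11.7% in either direction). With SL0101 23 fell and 1 rose, where 5.79% and 5.09% of all genes did (10.9% in either direction). The members, and the further lists below, were chosen with earlier results of these data known. A share above that of all genes is therefore a description, not independent evidence. The median log2 fold change of the members was -1.03 with rapamycin and -1.47 with SL0101, against -0.01 and -0.02 over all genes tested. With genes at 0 in a whole group set to their bound, the members' medians were -1.01 and -1.42. Among Hoxb8 libraries, Ms4a7, Maf, Cd86 and Slfn1 reached a value of 1 or more only in DMSO. They entered the tests through DMSO alone, so they could only be lower with an inhibitor. All of them enter these medians and the library counts that follow, and Ms4a7 and Maf are among the falls with both inhibitors. Both rapamycin libraries lay below both DMSO libraries for 26 members and above them for 4, against 27% and 25.3% of all genes (52.3% in either direction). For SL0101 these were 30 members below and 1 above, against 28.2% and 26.6% (54.7% in either direction). Both comparisons use the same 2 DMSO libraries, so their values stand side by side and are not independent. In bulk RNA, fewer cells of a type and less RNA per cell cannot be told apart. The number of calls rested on how the test estimated variance: without an expression trend in the variance estimate 6 members passed with rapamycin (Fn1, Fcgr1, Tlr2, Tlr13, Pld4 and Ms4a7) and 7 with SL0101 (Ccr2, Fn1, Fcgr1, Tlr13, Mpeg1, Pld4 and Ms4a7).

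**Figure D2:**
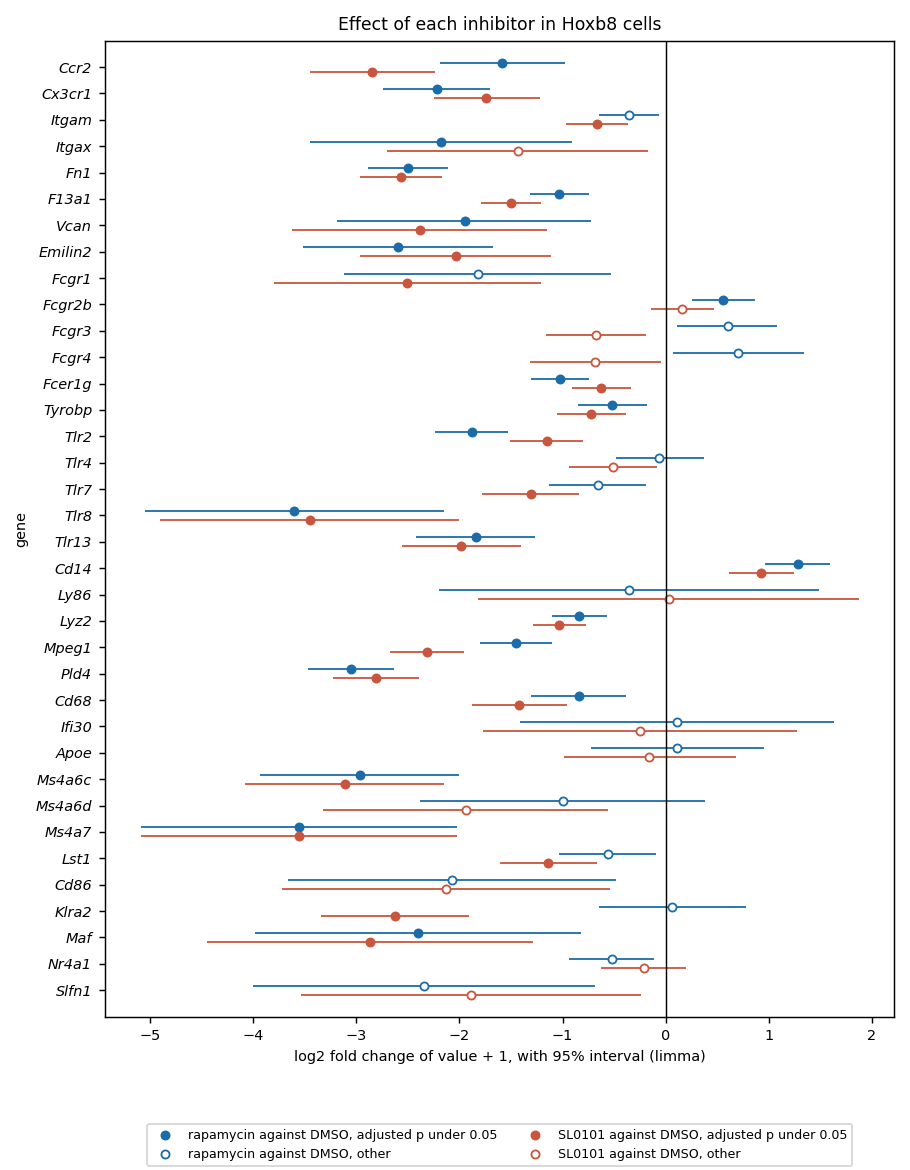
Log2 fold change of each tested gene (y axis) with rapamycin and with SL0101 against DMSO, on the value plus 1 scale; lines are 95% intervals from limma and filled points have an adjusted p under 0.05. Most filled points lie left of 0, and Cd14 lies right of 0 for both inhibitors (1.28 and 0.92).

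Genes of migration, adhesion and matrix fell together: 7 of 8 fell with each inhibitor. For this and the next role groups, 6.35% of all genes fell and 5.4% rose with rapamycin. With SL0101 5.79% of all genes fell and 5.09% rose. Fn1, which encodes fibronectin, stood at 673 and 521 signal units in the DMSO libraries, 119 and 90.7 in rapamycin, and 99.7 and 98.5 in SL0101. Every inhibitor library lay below both DMSO libraries, and the log2 fold changes were -2.50 ± 0.19 (SE; adjusted p = 8.39e-09) and -2.57 ± 0.19 (7.66e-09). Ccr2, the receptor that guides monocytes out of the marrow, stood at 124 and 179 in DMSO, 52.2 and 45.9 in rapamycin, and 15.7 and 25.0 in SL0101. It fell with both, by 1.59 ± 0.29 (adjusted p = 6.84e-04) and by 2.85 ± 0.29 (9.79e-07) on the log2 scale. Cx3cr1, the fractalkine receptor, stood at 269 and 265 in DMSO, 78.8 and 40.3 in rapamycin, and 84.8 and 74.3 in SL0101, with changes of -2.22 (adjusted p = 2.7e-06) and -1.74 (8.38e-05). Again neither inhibitor group overlapped DMSO. The matrix glycoprotein gene Emilin2 stood at 72.7 and 55.6, 13.8 and 6.72, and 23.6 and 9.09 in the same order (changes -2.60 and -2.03, adjusted p = 3.4e-04 and 0.00442). Vcan, the proteoglycan versican, was low throughout, at 29.2 and 19.1, 6.42 and 4.48, and 7.87 and 1.52 (changes -1.95 and -2.38, adjusted p = 0.0346 and 0.0112). F13a1, the catalytic subunit of a clotting factor and abundant in monocytes, stood at 2693 and 2847, 1454 and 1260, and 903 and 1059, with changes of -1.03 (adjusted p = 2.44e-05) and -1.50 (2.65e-07). Thus all 6 of these genes had separate DMSO and inhibitor values. Of all genes, 27% were separate and lower with rapamycin and 28.2% with SL0101.

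The 2 integrin genes each passed with 1 inhibitor. Itgax (CD11c) stood at 16.6 and 17.4 in DMSO, 6.42 and 1.12 in rapamycin, and 7.00 and 4.55 in SL0101. It fell with rapamycin (-2.18, adjusted p = 0.0211), while the SL0101 change of -1.43 did not pass (adjusted p = 0.146). Itgam (CD11b) stood at 2481 and 2615, 2190 and 1805, and 1462 and 1755, and fell with SL0101 (-0.67, adjusted p = 0.00366) but the rapamycin change of -0.36 did not pass (0.116). Neither gene passed in the comparison of the inhibitors with each other (adjusted p = 0.5 for Itgax and 0.187 for Itgam). Several calls of this group ended when 1 library was left out. With rapamycin, Ccr2 did not pass without DMSO replicate 2 (adjusted p = 0.0651), Itgax without DMSO replicate 1, DMSO replicate 2 or rapamycin replicate 2 (0.159 to 0.203), and Vcan without any one of the 4 libraries compared (0.0532 to 0.313). With SL0101, Itgam did not pass without DMSO replicate 1, DMSO replicate 2 or SL0101 replicate 1 (0.0549 to 0.114). Vcan and Emilin2 did not pass with SL0101 without DMSO replicate 1, DMSO replicate 2 or SL0101 replicate 2 (0.0866 to 0.186 and 0.0601 to 0.119).

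Fc receptor genes moved in both directions: 2 of 6 fell and 1 rose with rapamycin, and 3 fell with SL0101. The adaptors fell with both inhibitors: Fcer1g, the common chain of the activating Fc receptors, by 1.02 with rapamycin and 0.63 with SL0101 on the log2 scale (adjusted p = 1.91e-05 and 0.00426), and Tyrobp by 0.52 and 0.72 (0.0402 and 0.0057). Both remained abundant, with every library of Fcer1g between 2042 and 4570 signal units and every library of Tyrobp between 2036 and 3960. Fcgr1, the high-affinity IgG receptor, stood at 11.1 and 11.6 in DMSO, 2.75 and 2.24 in rapamycin, and 0.875 and 1.52 in SL0101. It fell with SL0101 (-2.51 ± 0.62 SE, adjusted p = 0.0111), and the rapamycin change of -1.82 did not pass (0.0614). The inhibitory receptor Fcgr2b rose with rapamycin, from 435 and 506 to 678 and 711 (0.56, adjusted p = 0.0131), and stood at 497 and 556 with SL0101 (0.16, adjusted p = 0.543). The activating receptors Fcgr3 and Fcgr4 passed against DMSO with neither inhibitor. Some of these calls ended without 1 library. With rapamycin, Fcgr2b did not pass without DMSO replicate 1 (adjusted p = 0.222) or DMSO replicate 2 (0.0558), and Tyrobp without DMSO replicate 1, DMSO replicate 2 or rapamycin replicate 1 (0.0876 to 0.422) or with only the libraries compared (0.0711). With SL0101, Fcgr1 did not pass without DMSO replicate 1, DMSO replicate 2 or SL0101 replicate 1 (0.104 to 0.141), Fcer1g without DMSO replicate 1, DMSO replicate 2 or SL0101 replicate 2 (0.0549 to 0.106), and Tyrobp without DMSO replicate 2 or SL0101 replicate 1 (0.0703 to 0.182).

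Among the TLRs and their partners, 3 of 7 fell with rapamycin and 4 with SL0101, while Cd14 rose with both. Tlr2, a receptor for bacterial lipoproteins, stood at 509 and 583 in DMSO, 169 and 128 in rapamycin, and 255 and 234 in SL0101. It fell by 1.88 ± 0.17 (SE; adjusted p = 1.33e-07) and 1.15 ± 0.17 (1.21e-04) on the log2 scale, with no overlap between any of the 3 groups. Tlr13, a sensor of bacterial ribosomal RNA, stood at 103 and 125, 29.3 and 32.5, and 27.1 and 28.8, with changes of -1.84 (adjusted p = 8.77e-05) and -1.98 (6.41e-05). Tlr8, an endosomal receptor of the RNA-sensing branch, stood at 30.8 and 24.9, 4.58 and 0, and 1.75 and 1.52 (changes -3.60 and -3.45, adjusted p = 0.00118 and 0.00238). Its inhibitor values were at most a few fragments per library. Tlr7, a sensor of single-stranded RNA, stood at 149 and 149 in DMSO and 54.2 and 65.2 in SL0101 (-1.31, adjusted p = 5.75e-04), and at 111 and 79.5 in rapamycin, where the change of -0.66 did not pass (0.0637). Cd14, the co-receptor that hands lipopolysaccharide to Tlr4, went the other way. It stood at 372 and 443 in DMSO, 1059 and 917 in rapamycin, and 710 and 836 in SL0101, a rise of 1.28 ± 0.15 (adjusted p = 4.54e-06) and 0.92 ± 0.15 (3.42e-04), so that every inhibitor library lay above both DMSO libraries. Tlr4 itself, between 85.7 and 148 in all 6 libraries, and Ly86, between 0 and 2.62, passed with neither inhibitor. Tlr8 did not pass with rapamycin without DMSO replicate 1 (adjusted p = 0.0596), nor with SL0101 without DMSO replicate 1 (0.0802) or DMSO replicate 2 (0.0598).

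Of the lysosomal and killing genes, 4 of 6 tested fell with each inhibitor, and the other tested members, Ifi30 and Apoe, were low and did not pass. Pld4, a nuclease of the endolysosome, had the smallest adjusted p of all members in both comparisons, equal with SL0101 to those of Fn1 and Mpeg1. It stood at 455 and 638 in DMSO, 66.0 and 62.7 in rapamycin, and 82.2 and 70.5 in SL0101. The changes were -3.05 ± 0.20 (SE; adjusted p = 1.52e-09) and -2.81 ± 0.20 (7.66e-09), an 8.50-fold and a 7.16-fold lower mean. Mpeg1, which encodes a pore-forming protein that acts on engulfed bacteria, stood at 622 and 867, 268 and 269, and 138 and 156. It fell by 1.45 ± 0.17 (adjusted p = 4.28e-06) and 2.31 ± 0.17 (7.66e-09) on the log2 scale. Lyz2 kept the highest level of all members per kb and still fell, from 22127 and 25356 to 13623 and 12904 in rapamycin and 11056 and 12156 in SL0101 (changes -0.84 and -1.03, adjusted p = 8.87e-05 and 1.38e-05). Cd68, a lysosomal glycoprotein used as a macrophage marker, fell by 0.84 (adjusted p = 0.0141) and 1.42 (2.06e-04). Its values were 209 and 273, 156 and 113, and 72.6 and 108, without overlap of DMSO and either inhibitor. With rapamycin Cd68 did not pass without DMSO replicate 1, DMSO replicate 2 or rapamycin replicate 2 (adjusted p = 0.0533 to 0.26).

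Among small membrane proteins 2 of 6 tested fell with rapamycin and 4 with SL0101. Ms4a6c and Ms4a7, of a family with several membrane-spanning segments, fell with both inhibitors. Ms4a6c stood at 71.9 and 83.0 in DMSO, 5.50 and 14.6 in rapamycin, and 5.25 and 12.1 in SL0101 (changes -2.96 and -3.11, adjusted p = 1.32e-04 and 1.28e-04). Ms4a7 stood at 8.69 and 13.3 in DMSO and at 0 in all 4 inhibitor libraries. Against a floor of 3 fragments per library its mean was at least 3.27-fold lower with rapamycin (adjusted p = 0.00217) and at least 4.19-fold lower with SL0101 (0.00296). Klra2 and Lst1, a small protein of myeloid cells, fell with SL0101. For Klra2 the libraries stood at 60.1 and 93.0 in DMSO, 88.0 and 69.4 in rapamycin, and 16.6 and 7.58 in SL0101. Its change was -2.62 ± 0.34 (SE; adjusted p = 2.95e-05) with SL0101 and 0.06 with rapamycin (95% interval -0.65 to 0.78, adjusted p = 0.942), and the rapamycin and DMSO values overlapped. Lst1 fell by 1.14 with SL0101 (adjusted p = 0.00221), and its rapamycin change of -0.56 did not pass (0.122). Ms4a6d and the costimulatory gene Cd86 were at most 7.47 in every library and passed with neither. Of the 3 regulators, the transcription factor gene Maf fell with both, from 4.74 and 8.30 to 0.917 and 0 in rapamycin (-2.40, adjusted p = 0.0427) and to 0 in both SL0101 libraries (at least 2.49-fold lower, adjusted p = 0.0171). The nuclear receptor gene Nr4a1, between 90.7 and 134, and the Schlafen gene Slfn1, at most 6.64, passed with neither. Maf did not pass with rapamycin without rapamycin replicate 1 (adjusted p = 0.0607) or replicate 2 (0.226), nor with a pseudocount of 0.5 (0.0773) or voom weights (0.0738). With SL0101 it did not pass without SL0101 replicate 1 (0.108) or replicate 2 (0.076), and Lst1 did not without DMSO replicate 2 (0.118) or SL0101 replicate 1 (0.0608).

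**Figure D3:**
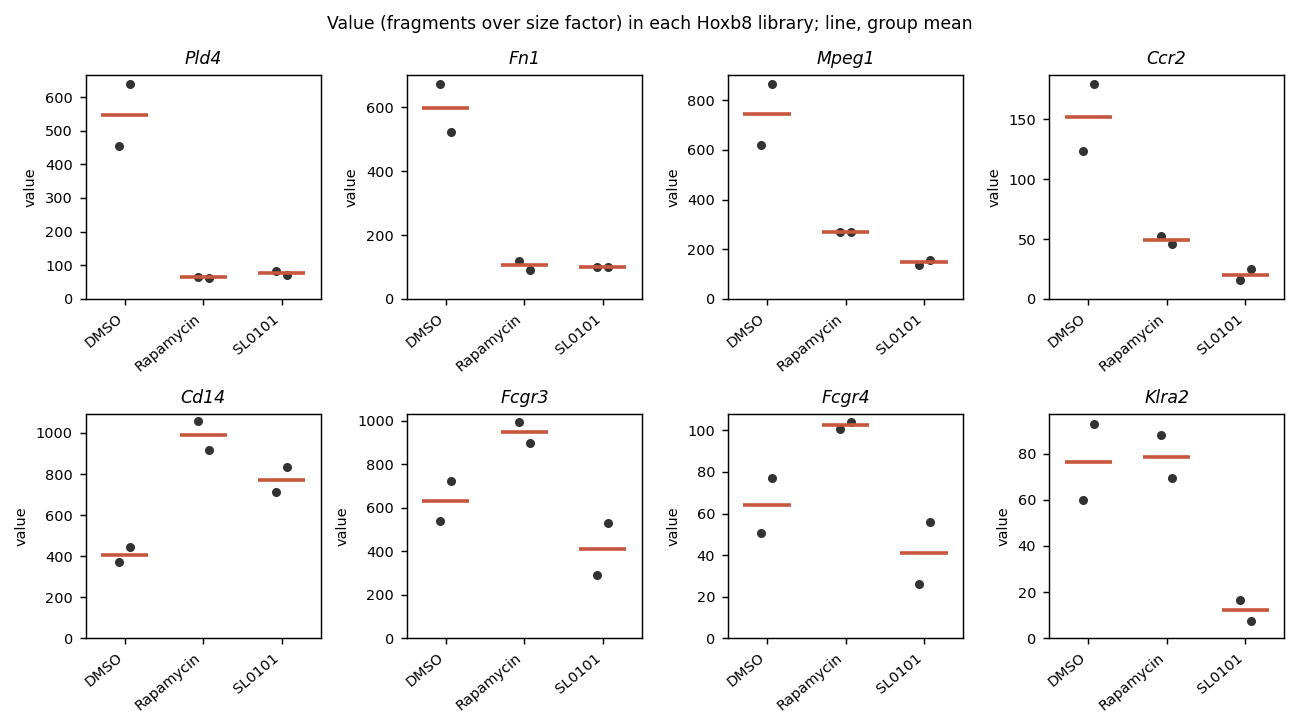
Signal value of 8 genes in each of the 6 Hoxb8 libraries (points) with group means (lines); each y axis starts at 0. Pld4, Fn1, Mpeg1 and Ccr2 are highest in both DMSO libraries, Cd14 is lowest there, and Klra2 is low in both SL0101 libraries only.

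Because many of these genes moved together, their promoters were searched for 4 motifs on both strands, in windows of RefSeq (build GRCm38.p6) from 250 bases before to 50 after a gene's start. A window was at hand for 29 of the 39 genes. The PU.1 core GAGGAA was in a window of 14 of them (48.3%), against 31.3% of 27025 genes. The C/EBP motif TTGCNNAA was in 6 (20.7% against 12.2%), the AP-1 motif TGANTCA in 4 (13.8% against 8.97%) and the E-box CACGTG in 1, Ifi30 (3.45% against 8.09%). No test was made, and a match describes letters, not binding. The windows below show 4 members with different responses, with GAGGAA or TTGCNNAA in capitals (as their reverse complements where the match is on the other strand). Pld4 (chr12:112760405-112760704, plus strand), which fell most clearly with both inhibitors, holds GAGGAA 9 bases after its start. Itgam (chr7:128062390-128062689, plus strand), abundant in Hoxb8 cells and lower in Tsc2 KO GMPs, holds it 84 bases before its start and, on the other strand, 15 before and 32 after. Ms4a6c (chr19:11469118-11469417, plus strand), which fell with both inhibitors, has no match in this window. Klra2 (chr6:131247313-131247612, minus strand), which fell with SL0101, holds GAGGAA 70 and TTGCNNAA 79 bases before its start, both on the other strand.
Pld4: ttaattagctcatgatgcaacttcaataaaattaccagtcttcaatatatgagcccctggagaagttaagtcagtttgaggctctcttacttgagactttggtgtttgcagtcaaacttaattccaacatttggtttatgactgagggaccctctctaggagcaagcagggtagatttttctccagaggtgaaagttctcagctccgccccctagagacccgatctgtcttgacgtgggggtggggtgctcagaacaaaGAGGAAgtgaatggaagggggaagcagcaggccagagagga
Itgam: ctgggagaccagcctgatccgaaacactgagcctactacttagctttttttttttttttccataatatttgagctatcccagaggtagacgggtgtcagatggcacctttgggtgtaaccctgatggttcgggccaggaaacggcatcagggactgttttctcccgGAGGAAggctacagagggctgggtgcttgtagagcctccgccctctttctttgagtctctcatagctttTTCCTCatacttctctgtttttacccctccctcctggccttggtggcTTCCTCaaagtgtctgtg
Ms4a6c: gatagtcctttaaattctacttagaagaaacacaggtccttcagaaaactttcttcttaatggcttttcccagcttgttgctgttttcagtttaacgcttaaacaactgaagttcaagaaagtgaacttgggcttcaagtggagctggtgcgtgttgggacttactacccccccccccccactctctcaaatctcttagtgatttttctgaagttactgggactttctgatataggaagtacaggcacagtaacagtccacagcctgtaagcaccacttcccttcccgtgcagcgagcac
Klra2: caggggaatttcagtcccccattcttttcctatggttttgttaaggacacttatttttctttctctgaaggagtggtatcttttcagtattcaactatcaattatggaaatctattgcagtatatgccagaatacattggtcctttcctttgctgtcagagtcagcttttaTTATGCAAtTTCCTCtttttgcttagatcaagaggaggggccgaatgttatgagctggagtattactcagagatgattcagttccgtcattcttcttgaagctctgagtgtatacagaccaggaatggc

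Compared with each other, the inhibitors left different levels of 7 of the 36 members: 6 were higher with rapamycin and 1 was lower, where 4.43% and 4.44% of all genes were (8.87% in either direction). The members' median log2 difference was 0.29, against 0.01 over all genes. With every library set to the same total the members' split was 5 higher and 2 lower, and the share of higher calls over all genes went from 50% to 38.7%. Klra2 showed the largest difference, at 2.69 ± 0.34 (SE; adjusted p = 7.1e-05), from the library values given above. Fcgr3 stood at 996 and 898 in rapamycin and 289 and 529 in SL0101, with 540 and 725 in DMSO between them (difference 1.27, adjusted p = 0.00365). Fcgr4 stood at 101 and 104 against 26.2 and 56.1, with 50.6 and 77.2 in DMSO (difference 1.39, adjusted p = 0.00717). For both activating Fc receptors every rapamycin library lay above every SL0101 library. Ccr2 (1.26, adjusted p = 0.0091), Mpeg1 (0.86, 0.00335) and F13a1 (0.47, 0.04) were lower than DMSO with both inhibitors and lower still with SL0101. Tlr2 was lower with rapamycin than with SL0101 (-0.73, adjusted p = 0.00985). Both rapamycin libraries lay above both SL0101 libraries for 17 members and below them for 4, against 26.1% and 25.1% of all genes (51.1% in either direction). Doses and targets of the compounds differ. Without SL0101 replicate 1 the calls of Ccr2 (adjusted p = 0.152), F13a1 (0.355), Fcgr4 (0.188), Tlr2 (0.132) and Mpeg1 (0.0728) ended. Without rapamycin replicate 1 those of Fcgr3 (0.0961) and F13a1 (0.149) ended, without rapamycin replicate 2 that of Tlr2 (0.0806), and without SL0101 replicate 2 that of F13a1 (0.0557). With only the rapamycin and SL0101 libraries fitted Ccr2 (0.0513) and F13a1 (0.0948) did not pass, nor did F13a1 with every library at the same total (0.0587). Without a variance trend none of the 7 passed.

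Other genes of the same pathways were mostly lower where they passed in Hoxb8 cells. Over all genes tested, 6.35% fell and 5.4% rose with rapamycin, and 5.79% fell and 5.09% rose with SL0101. Of 22 further tested genes of TLR signalling, 9 fell and 1 rose with rapamycin, and 7 fell and 2 rose with SL0101 (medians -0.40 and -0.44, against -0.01 and -0.02 over all genes). Tlr1 was at 14.2 and 4.15 in DMSO and at 0 in both rapamycin libraries. Among the genes that passed with a mean of 10 or more in DMSO, those that changed most were Tlr9, the receptor for unmethylated DNA (-4.67 with rapamycin and -2.69 with SL0101), the Tlr4 partner Ly96 (-2.42 and -2.12), Cd180 (-2.13 and -2.57) and the transcription factor gene Irf7 (-2.13 and -1.99). Of 21 genes of Fc and ITAM receptor signalling, where ITAMs are the tyrosine motifs that recruit the kinase Syk, 7 fell with rapamycin and 5 with SL0101 (medians -0.22 and -0.32). The fungal receptor Clec7a fell by 1.69 and 1.99, and the inhibitory receptor Pirb by 1.42 and 1.72 on the log2 scale. The list of growth factor receptors and transcription factors had 5 lower and 1 higher of 16 with rapamycin and 2 lower with SL0101 (medians -0.61 and -0.30). Its share with SL0101, 12.5%, was near the 10.9% of all genes called in either direction. Irf8 fell with both, from 120 and 125 in DMSO to 60.5 and 29.1 in rapamycin and 41.1 and 42.4 in SL0101 (-1.52, adjusted p = 0.00112, and -1.53, adjusted p = 0.00143). Spi1 did not pass (-0.10 and 0.19, adjusted p = 0.766 and 0.506). Csf1r, the receptor for the monocyte growth factor M-CSF, stood at 1669 and 1850, 805 and 363, and 1186 and 915, and its changes of -1.70 and -0.75 did not pass (adjusted p = 0.0674 and 0.35).

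Of 39 other tested genes of the monocyte surface and secretions, 15 fell and 4 rose with rapamycin, and 23 fell and 1 rose with SL0101 (medians -0.53 and -0.88). In either direction these were 48.7% and 61.5%, against 11.7% and 10.9% of all genes. S100a4, a calcium-binding protein, changed by -4.31 and -3.36, and the lectin gene Clec4a3 by -3.12 with each. Ctss, the lysosomal protease cathepsin S, stood at 259 and 315 in DMSO, 25.7 and 14.6 in rapamycin, and 23.6 and 35.6 in SL0101 (-3.81, adjusted p = 1.34e-08, and -3.25, adjusted p = 2.17e-07). The progenitor granule genes Mpo and Elane moved oppositely to most of the monocyte genes. Mpo stood at 6305 and 6634 in DMSO, 43031 and 39285 in rapamycin, and 14940 and 19997 in SL0101 (2.67 and 1.42, adjusted p = 4e-11 and 5.09e-07). Elane rose by 1.87 and 1.40 (adjusted p = 1.34e-08 and 1.35e-06). The neutrophil markers Camp and Ltf were instead lower in every inhibitor library than in both DMSO libraries. Camp stood at 2707 and 3232 in DMSO, 651 and 1538 in rapamycin, and 1381 and 1794 in SL0101. Ltf stood at 10967 and 11899, 7765 and 6805, and 3137 and 5182 in the same order. Over 14 neutrophil markers the summed level was 130234 to 176229 in DMSO, 123109 to 158076 in rapamycin and 82287 to 118648 in SL0101, and 8 of the 14 passed with each inhibitor, 5 higher and 3 lower with rapamycin and 4 in each direction with SL0101. Over 12 tissue macrophage markers it was 243 to 276 in DMSO, 44.8 to 59.6 in rapamycin and 69.7 to 74.3 in SL0101, and 3 of the 4 tested fell with each (Hmox1, Trem2 and Gpnmb). The other one tested, Vcam1, rose with SL0101, from 1.58 and 0 in DMSO to 14.0 and 19.7 (3.46, adjusted p = 0.00146), and stood at 6.42 and 2.24 in rapamycin (1.61, adjusted p = 0.13). C1qa, Cd5l and Axl were at 0 in all 3 groups. The part of these cell type markers in the members' changes was not tested.

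In GMPs the knockout of Raptor raised 3 members and lowered none. Of 38 tested members 3 were higher, where 1.53% of all genes were, and 0 were lower, where 2.42% were (3.94% in either direction). At an unadjusted p under 0.05 limma counted 8. The members' median log2 fold change was 0.06, against 0.03 over all genes tested. Ms4a6d stood at 0.721, 0 and 0.811 signal units in the fl/fl libraries and at 4.25, 14.1 and 11.3 in the knockout libraries (2.76 ± 0.65 SE, adjusted p = 0.0225). Fcgr4, an activating Fc receptor, stood at 2.16, 6.23 and 3.25 against 17.0, 27.5 and 13.2 (2.07 ± 0.53, adjusted p = 0.0359). Apoe stood at 1090, 1510 and 1441 against 2383, 2913 and 2771, a 2.00-fold higher mean (1.01 ± 0.24, adjusted p = 0.0416). In all 3 genes every knockout library lay above every fl/fl library. Each call ended when single libraries were left out: that of Apoe without any one of the 6 libraries (adjusted p up to 0.159) and under quantile normalization (0.0569), that of Fcgr4 without any but Raptor fl/fl replicate 2 (up to 0.17), and that of Ms4a6d without any but Raptor KO replicate 1 (up to 0.117). Without a variance trend Fcgr4 alone passed, and when only the 6 Raptor libraries were fitted 10 of 32 tested members passed, 8 higher and 2 lower, while the calls over all genes went from 522 to 1249.

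Further members had separate groups without passing. Cd68 stood at 57.7, 68.5 and 46.3 in the fl/fl libraries and 116, 190 and 194 in the knockout libraries (1.50, adjusted p = 0.0625). Maf stood at 2.16, 0 and 0.811 against 7.08, 5.20 and 4.70 (1.88, adjusted p = 0.0964), and Tlr7 at 4.33, 0.779 and 5.68 against 6.37, 9.66 and 10.3 (1.27, adjusted p = 0.342). Nr4a1 stood at 88.7, 164 and 88.5 against 59.4, 78.8 and 88.3 (-0.54, adjusted p = 0.447). In these 4 genes the groups did not overlap, in the Raptor line as in the Tsc2 line, although by less than 1 signal unit for Nr4a1 in the Raptor line and for Tlr7 in both lines. In all, the groups of the Raptor line did not overlap for the members that follow. The 11 higher ones (Fcgr2b, Emilin2, Mpeg1, Apoe, Tlr7, Cd14, Ccr2, Cd68, Maf, Fcgr4 and Ms4a6d) compare with 13.3% of all genes. The 5 lower ones (Ms4a6c, Cx3cr1, Nr4a1, Fcgr3 and Tyrobp) compare with 13.1% (26.4% in either direction). The sort selected cells on FcγRII/III, the products of Fcgr2b and Fcgr3, so the levels of these 2 genes come from cells chosen for their proteins. Groups overlapped for Itgam, Itgax, Fn1, F13a1, Vcan, Fcgr1, Fcer1g, Tlr2, Tlr4, Tlr8, Tlr13, Ly86, Lyz2, Pld4, Ifi30, Cd36, Msr1, Ms4a7, Aif1, Lst1, Cd86 and Slfn1.

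**Figure D4:**
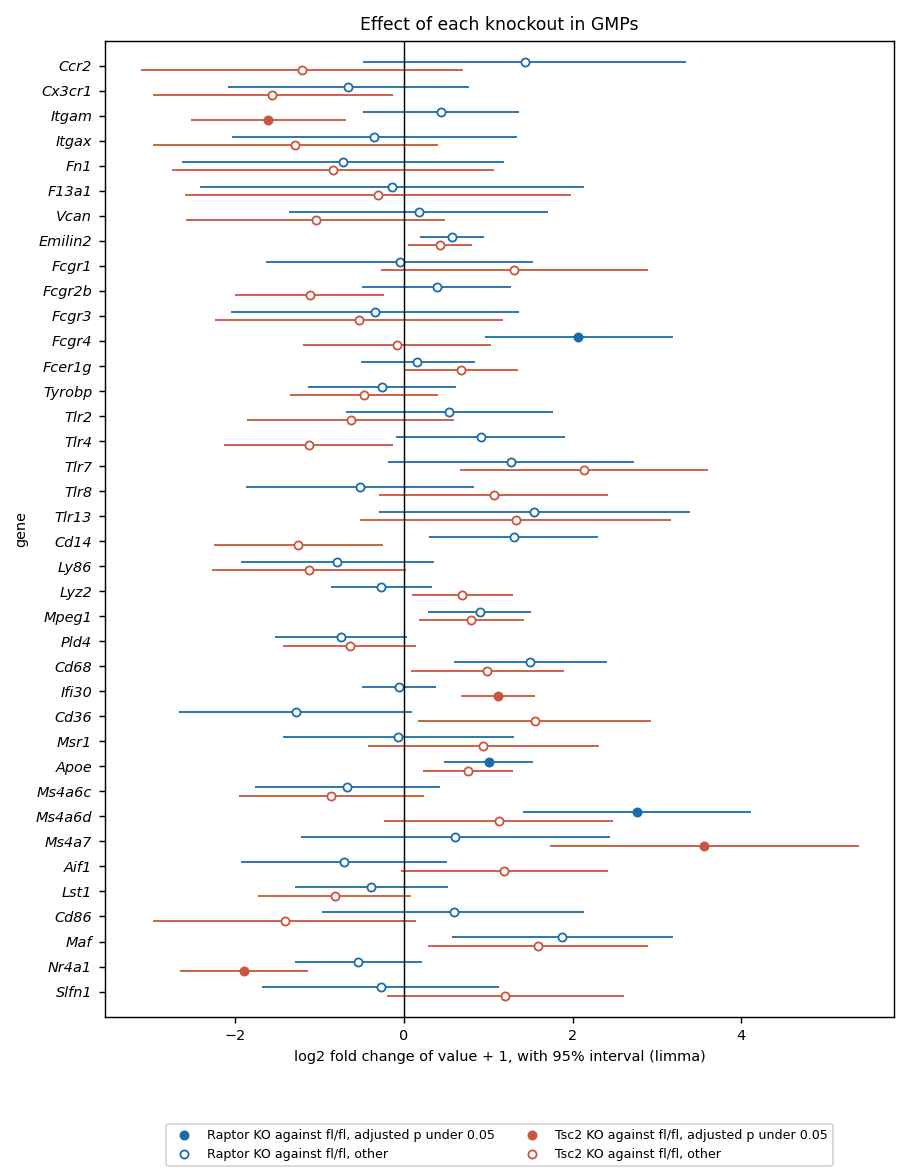
Log2 fold change of each tested gene (y axis) in Raptor KO and in Tsc2 KO GMPs against their own fl/fl groups, on the value plus 1 scale; lines are 95% intervals from limma and filled points have an adjusted p under 0.05. Filled points are Fcgr4, Apoe and Ms4a6d for Raptor and Itgam, Ifi30, Ms4a7 and Nr4a1 for Tsc2.

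The knockout of Tsc2 raised 2 members and lowered 2 of the 38, where 5.26% and 7.12% of all genes did so (12.4% in either direction). These 10.5% of the members are near the share of all genes, so the count is not a result about the members. The members' median was -0.19, against -0.02 over all genes. It was -0.31 over the 37 members without Fcgr1. That gene was at 0 in every Tsc2 fl/fl library, and its knockout mean of 1.61 lay below the floor of 3 fragments (2.82), so no bound could be set. Quantile normalization gave a split of 3 higher and 1 lower. Ifi30 stood at 71.1, 115 and 85.6 signal units in the fl/fl libraries and 158, 229 and 202 in the knockout libraries (1.12 ± 0.21 SE, adjusted p = 0.00249). Nr4a1, an immediate early gene needed for Ly6C-low monocytes, stood at 186, 386 and 256 against 70.3, 115 and 42.2 (-1.90 ± 0.35, adjusted p = 0.00393). In both genes the groups did not overlap. Both also passed under each of the other settings tried, including those without single libraries. Ms4a7 stood at 2.60, 0 and 0 against 14.6, 14.4 and 23.7 (3.56 ± 0.87, adjusted p = 0.0132). Itgam stood at 52.9, 18.6 and 47.0 against 20.6, 11.0 and 5.93 (-1.61 ± 0.44, adjusted p = 0.0218), so that the lowest fl/fl library, replicate 2, lay below the highest knockout library, replicate 1. The call of Itgam ended without Tsc2 fl/fl replicate 1 or 3 or Tsc2 KO replicate 2 or 3 (adjusted p up to 0.13), under quantile normalization (0.0549) and with only the Tsc2 libraries fitted (0.102). That of Ms4a7 ended without Tsc2 fl/fl replicate 3 (0.0619), without Tsc2 KO replicate 3 (0.0676) and with replicates 1 and 3 alone (0.059).

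The number of members called in the Tsc2 line moved with the libraries fitted, and so did the number of all genes called. The members numbered 9 without Tsc2 fl/fl replicate 2, 11 without Tsc2 KO replicate 1, and 6 (3 higher and 3 lower) without replicate 2 of both groups, the libraries with Y-linked signal; without Tsc2 KO replicate 3 or a variance trend they numbered 2. Over all genes the calls were 1638 with every library, then 2287, 2498 and 1275 in the same order, 601 without Tsc2 KO replicate 3 and 827 without a variance trend, so these member counts are not a result about the members. Without Tsc2 KO replicate 1, the receptor and receptor partner genes Cx3cr1 (-2.19, adjusted p = 0.0172), Cd14 (-1.71, 0.0085), Tlr4 (-1.68, 0.0108), Ly86 (-1.73, 0.00318) and Fcgr2b (-1.69, 1.13e-05) were among those lower. None of these genes passed with every library. Replicate 1 was the highest Tsc2 KO library for 20 of 26 members with a mean of 10 or more, these genes included. Leaving it out therefore lowers their knockout means by construction, so these falls are no separate result. Groups of all 3 libraries did not overlap for 9 higher members, Msr1, Cd68, Ifi30, Aif1, Fcgr1, Cd36, Maf, Tlr7 and Ms4a7 (14.6% of all genes), and for 1 lower member, Nr4a1 (13.3%; 27.8% in either direction). Msr1 (0, 0 and 0.94 against 1.33, 1.38 and 1.48) and Fcgr1 (0, 0 and 0 against 2.65, 0.688 and 1.48) rest on a few fragments a library. Tsc2 fl/fl libraries held 2.48 to 2.58 M fragments and Tsc2 KO libraries 3.06 to 3.47 M. The part of depth in such separations was not tested. Among the separate members, Cd68 stood at 49.4, 10.2 and 41.4 in the fl/fl libraries and 57.7, 55.7 and 54.8 in the knockout libraries (0.99, adjusted p = 0.148), and Maf at 0, 2.54 and 1.88 against 4.64, 4.81 and 7.41 (1.59, adjusted p = 0.105). Tlr7 stood at 0, 5.92 and 1.88 against 17.9, 6.88 and 10.4 (2.14, adjusted p = 0.0513). Apoe stood at 969, 577 and 1290 against 1726, 1281 and 1596 (0.76, adjusted p = 0.0602), with 1 knockout library just below the highest fl/fl library. Groups overlapped for the remaining members, among them F13a1, whose values of 773, 73.6 and 580 against 758, 82.5 and 279 show the spread between libraries of 1 group, and Lyz2, at 189, 89.7 and 176 against 292, 235 and 186.

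**Figure D5:**
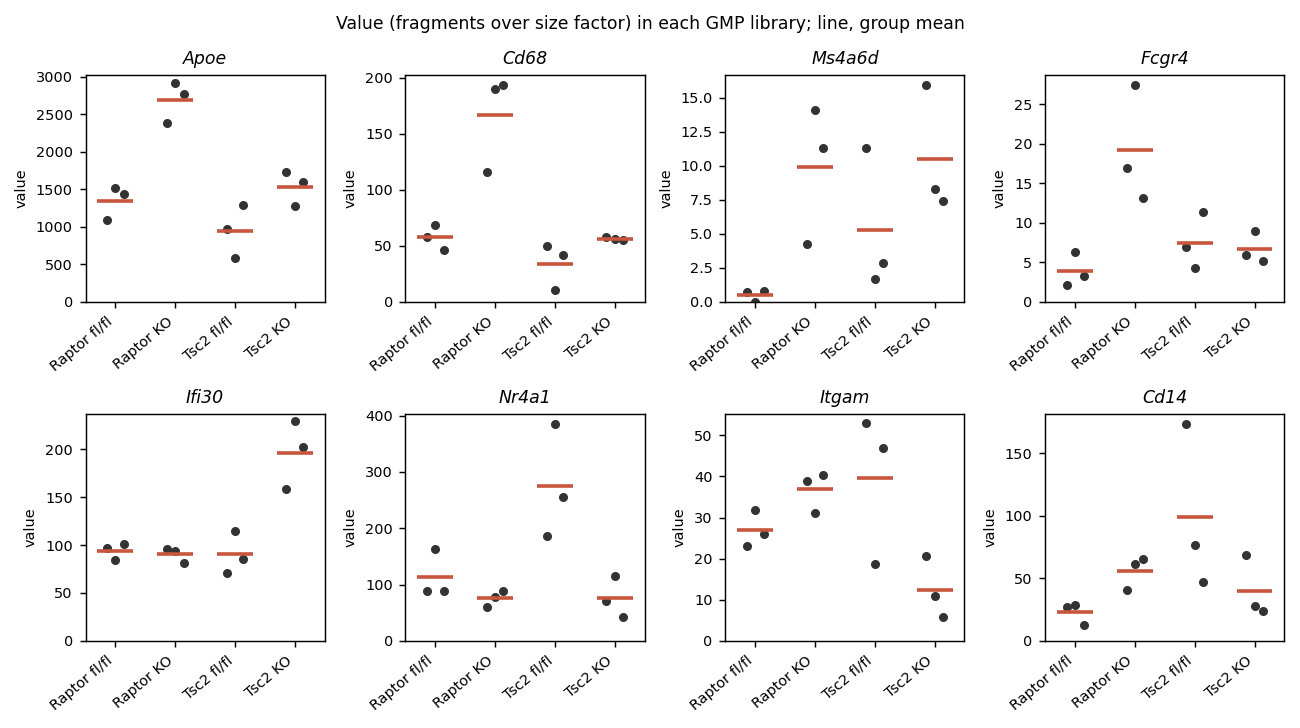
Signal value of 8 genes in each of the 12 GMP libraries (points) with group means (lines); each y axis starts at 0. Apoe, Cd68, Ms4a6d and Fcgr4 are higher in Raptor KO than in Raptor fl/fl, Ifi30 is higher and Nr4a1 lower in Tsc2 KO than in Tsc2 fl/fl, and Itgam and Cd14 overlap in the Tsc2 line.

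Whether the knockouts had different effects was tested directly, as the Raptor effect minus the Tsc2 effect. It passed for 3 of the 38 members, 2 positive and 1 negative, where 5.99% and 6.44% of all genes passed (12.4% in either direction). The members' share, 7.89%, was below that of all genes, so the count is not a result about the members. Quantile normalization gave 1 positive and 2 negative. Cd14 stood at 26.7, 28.8 and 13.0 in the Raptor controls against 40.3, 61.7 and 65.8 in Raptor KO, and at 173, 77.0 and 47.0 in the Tsc2 controls against 68.3, 27.5 and 23.7 in Tsc2 KO. Its effects were 1.30 and -1.25, each not passing alone, and they differed by 2.55 ± 0.67 (SE; adjusted p = 0.0217). Cd14 was higher in every Tsc2 control than in every Raptor control, while the knockout groups of both lines overlapped. The difference thus also rests on unlike control levels. Itgam stood at 23.1, 31.9 and 26.0 against 38.9, 31.2 and 40.4 in the Raptor line, and its effects of 0.44 and -1.61 differed by 2.05 ± 0.62 (adjusted p = 0.0377). Ifi30 stood at 97.4, 84.1 and 101 against 96.2, 93.7 and 80.8 in the Raptor line, and its effects of -0.06 and 1.12 gave a difference of -1.18 ± 0.30 (adjusted p = 0.0153). The effects on Apoe, 1.01 and 0.76, did not pass as different (0.24, 95% interval -0.50 to 0.99, adjusted p = 0.694), nor did those on Cd68, Maf or Tlr7 (adjusted p = 0.632, 0.869 and 0.616). The Cd14 call ended without Raptor fl/fl replicate 3, Raptor KO replicate 2 or 3, Tsc2 KO replicate 2 or 3, or replicate 2 of both Tsc2 groups (0.0542 to 0.0598), that of Ifi30 without Tsc2 KO replicate 2 (0.0519), and that of Itgam without any one library but Raptor fl/fl replicate 2, Tsc2 fl/fl replicate 2 and Tsc2 KO replicate 1 (up to 0.105), under quantile normalization (0.0774) and without a filter on low values (0.0546). Without a variance trend none passed.

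Other genes of these pathways were counted in the same fits. Over all genes tested, 1.53% rose and 2.42% fell in Raptor KO, and 5.26% rose and 7.12% fell in Tsc2 KO. In Raptor KO 0 of 26 TLR signalling genes and 0 of 22 Fc and ITAM signalling genes passed in limma, with 4 and 5 at an unadjusted p under 0.05 (medians -0.16 and 0.20, against 0.03 over all genes). In Tsc2 KO 3 of the 26 TLR genes fell, among them Lbp (-2.04) and Irak1 (-0.97). These 11.5% compare with 12.4% of all genes called in either direction (7.12% lower), so the count is near that share. TLR genes had a median of -0.65 and Fc and ITAM genes one of -0.76, against -0.02 over all genes. Of the 22 Fc and ITAM genes 9 fell and 1 rose (45.5% in either direction). The largest falls were those of the exchange factor gene Vav3 (81.3 to 16.5 mean signal, -2.31, adjusted p = 0.00106), the receptor gene Trem1 (-1.88, 0.0144), the adaptor gene Lcp2 (-1.80, 0.00142) and the kinase gene Syk (-1.65, 2.8e-04). The difference between both effects passed for 7 of the 22, all 7 positive, where 5.99% of all genes passed as positive. The 7 included Trem1 (2.87), Vav3 (2.60), Lcp2 (1.89) and Plcg2 (1.83). The median over the 22 genes was 1.03, against 0.08 over all genes. Of 20 growth factor receptors and transcription factors, 2 rose in Raptor KO, among them Egr1 (484 to 1032, 1.10, adjusted p = 8.62e-04), and 6 fell in Tsc2 KO (medians 0.17 and -0.99). Spi1 stood at 391, 250 and 449 in the Tsc2 controls and 148, 96.3 and 116 in the knockout (-1.57, adjusted p = 3.44e-04), and at 157, 140 and 222 in the Raptor controls and 155, 189 and 152 in that knockout (-0.05, adjusted p = 0.943). The difference between its effects was 1.53 (adjusted p = 0.00584). Pou2f2 (-2.35), Csf2ra (-1.44) and Klf4 (-1.25) also fell in Tsc2 KO. Irf8 and Csf1r passed in neither knockout (adjusted p = 0.594 and 0.905 in Raptor KO, 0.147 and 0.296 in Tsc2 KO); CD115, in the stain, is the product of Csf1r.

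Of 40 other monocyte genes 3 rose and 2 fell in Raptor KO, and 4 rose and 8 fell in Tsc2 KO (medians -0.03 and -0.70). In either direction these were 12.5% and 30%, against 3.94% and 12.4% of all genes. Ctss rose in both: it stood at 82.3, 80.2 and 103 in the Raptor controls and 229, 311 and 361 in the knockout (1.74, adjusted p = 4.05e-04), and at 107, 51.6 and 75.2 in the Tsc2 controls and 308, 270 and 241 in the knockout (1.85, 1.07e-04). Lgals3, the lectin galectin-3, rose by 2.92 and 3.84 and the chemokine gene Ccl2 by 2.89 and 2.58, while Ccl9 fell by 1.87 in Raptor KO and Csf3r, the G-CSF receptor, by 2.02 in Tsc2 KO. Markers of other cells moved beside these results. The sum over 12 tissue macrophage markers was 207 to 323 in the controls and 267 to 800 in the knockout of the Raptor line, and 131 to 151 and 709 to 1065 in the Tsc2 line. Of these, 7 rose in Tsc2 KO, and 1 rose and 3 fell in Raptor KO. Gpnmb rose in both (7.18 and 8.13), Mertk was at 0 in both fl/fl groups and Cd5l at 0 in Raptor KO. Erythroid markers summed to 3351 to 10985 in the controls and 13105 to 25965 in the knockout of the Tsc2 line (5 of 11 rose), and to 4245 to 4755 and 2129 to 2701 in the Raptor line (3 fell). Neutrophil markers summed to 36327 to 82915 and 8956 to 42521 in the Tsc2 line, and to 70435 to 81185 and 63180 to 66145 in the Raptor line, with 3 of 14 lower in each knockout. The lower sum in Tsc2 KO does not describe the 14 as a set. Mpo and Elane were the highest of them in every library of that line. Of the 14 changes in Tsc2 KO 8 were positive and 6 negative (median 0.44), against 2 and 12 in Raptor KO (median -0.75). Basophil and mast cell markers summed to 4120 to 7951 and 9672 to 11797 in the Raptor line and to 1783 to 3171 and 3514 to 8713 in the Tsc2 line, with 0 and 1 of 8 higher and none lower in limma (3 of 8 at an unadjusted p under 0.05 in Raptor KO). Megakaryocyte markers summed to 1056 to 1294 and 431 to 475 in the Raptor line and to 386 to 781 and 162 to 182 in the Tsc2 line, with 3 and 5 of 7 lower. B cell markers summed to 823 to 1144 and 108 to 156 in the Raptor line and to 346 to 586 and 20.7 to 74.9 in the Tsc2 line, with 9 and 8 of 10 lower. Mpo stood at 48343, 23511 and 52221 in the Tsc2 controls and 24793, 4820 and 7520 in the knockout. Elane stood at 13737, 6417 and 16283 against 6770, 1205 and 1897. Both had lower knockout means, but the changes did not pass in limma (adjusted p = 0.0515 for Mpo and 0.0503 for Elane). In both genes control replicate 2 lay just below knockout replicate 1. The part of these markers in the members' changes was not tested.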

How the data were processed

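The authors deposited 1 table of 22787 mouse genes by 18 libraries. Per the submitters' processing notes the tools were BWA, TopHat2 2.0.10, Cufflinks 2.2.1 and Cuffnorm, with a genome build not given in the sources used here. From the values, the deposited unit is a signal: a gene's fragments over the size factor of its library. In each library 98.9% to 99% of non-zero values were whole multiples of a smallest step, within a tolerance of 0.01, and this step gave the library's fragments. Because the others were not whole, no test for raw counts was used.

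Values were transformed to log2(value + 1) and tested with limma 3.58.1 in R 4.3.3, with an expression trend and robust moderation, two-sided. GMPs (12 libraries, 4 groups) and Hoxb8 cells (6 libraries, 3 groups) were fitted apart, over all genes with a value of 1 or more in at least 3 GMP or 2 Hoxb8 libraries (13237 and 11804 genes). P-values were adjusted by Benjamini-Hochberg within each of 6 comparisons, at 0.05. The fits were tested on simulated data. The pseudocount understates changes of low genes. No pair of libraries held identical values.

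Members and lists were chosen with earlier results of these data known. Library values are given for members that passed (the 12 largest changes where more passed), for members separate in both knockout comparisons, and for Rptor and Tsc2 as label checks; other members have ranges and counts, and each further list up to 4 genes. Csf1r, Irf8, Spi1, Ctss, Elane and Mpo are named regardless of their tests. A gene of the further lists is not reported here. Library values of Cd14, Lyz2, Cd68, Fcgr2b, Tlr7 and Itgam in Hoxb8 cells, of F13a1, Lyz2 and Apoe in the Tsc2 line, and the members named for single left-out libraries, were chosen after their values were seen. Promoters came from RefSeq (GRCm38.p6), and per-kilobase levels from GENCODE vM21 exons. Alternatives covered the variance trend, scaling, filter, pseudocount, weights, libraries fitted, a replicate block and leaving out each library.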

Additional observations from a re-analysis of the deposited data

Results flagged for a closer look

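For 3 members the effects of the knockouts in GMPs differed in a direct test of the difference, the Raptor effect minus the Tsc2 effect, out of 38 tested (7.89%, where 12.4% of all genes passed). The difference was 2.55 for Cd14, 2.05 for Itgam and -1.18 for Ifi30 on the log2(value + 1) scale. Cd14 was higher in every Raptor KO library than in every Raptor fl/fl library, while its Tsc2 groups overlapped. Itgam overlapped in both lines, and Ifi30 was separate in the Tsc2 line only. No explanation was tested.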

How the results depend on the processing

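No setting reversed the direction of a called member. Without a variance trend the number of members called fell from 3 to 1 for Raptor KO, 4 to 2 for Tsc2 KO, 3 to 0 for the difference between knockouts, 21 to 6 for rapamycin, 24 to 7 for SL0101 and 7 to 0 for rapamycin against SL0101; over all genes the calls were then 188, 827, 599, 171, 87 and 0. The cause was not tested. With only the groups compared, 10 members passed for Raptor KO, and 1249 of all genes against 522. The difference between knockouts gave 6 with a pseudocount of 5 and 5 with voom weights on the recovered fragments. Leaving out 1 library gave 0 to 1 members for Raptor KO, 2 to 11 for Tsc2 KO, 1 to 7 for the difference, 13 to 20 for rapamycin, 14 to 22 for SL0101 and 2 to 7 for rapamycin against SL0101; in Hoxb8 cells this leaves 1 library in a group, assumed to vary like the others. Members that passed under each setting run were 0 of 3 for Raptor KO, 2 of 4 for Tsc2 KO (Nr4a1 and Ifi30) and 0 of 3 for the difference. They were 5 of 21 for rapamycin (Fn1, Pld4, Tlr13, Tlr2 and Ms4a7), 6 of 24 for SL0101 (Ccr2, Fn1, Mpeg1, Ms4a7, Pld4 and Tlr13) and 0 of 7 for rapamycin against SL0101. Ms4a7 was run under 12 settings with each inhibitor and the others named for the inhibitors under 14. It failed the filter when either DMSO library was left out, so those runs could not end its call. Same-numbered libraries did not deviate together throughout (r = 0.026, 0.047 and 0.01 in the Raptor line, 0.217, 0.245 and -0.032 in the Tsc2 line, 0.005 to 0.046 in Hoxb8 cells). Between replicates 1 and 2 of the Tsc2 line the crossed pairs gave -0.294 and -0.18, and both replicates 2 carried Y-linked signal. With 2 libraries a group, same-numbered and crossed r in Hoxb8 cells are equal and opposite by construction and cannot show pairing. Whether the numbers pair the samples is therefore not known here. A replicate block gave 3, 6, 6, 26, 25 and 12 members in the same order of comparisons. The 2 planned tests for whole counts were not run, since not every value was a whole multiple. At 2.31 to 3.52 M fragments, genes near 0 rest on a few fragments a library.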
